A study of Homo sapiens with 14 samples.

Results

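The data described here are 8 total RNA sequencing libraries out of 14 in the series, from 2 lines of the human cell line OCI-AML2, which grew from an acute myeloid leukaemia. Both lines, named G7 and F3, carry the heterozygous nonsense allele RUNX1 R174* beside a wild-type allele, and both were sampled with and without homoharringtonine (HHT). The groups are G7 with 100 nM HHT for 8 h, G7 control, F3 with 100 nM HHT for 8 h and F3 control, with 2 libraries each. The labels do not say whether G7 and F3 are single clones, how the allele was made, or whether the 2 libraries of a group came from separate cultures. Each p-value below thus measures only the spread between these libraries, and G7 and F3 stand for themselves and not for a population of lines. The treatment labels give the controls as 8 h, and the protocol names DMSO beside HHT, but the library names of the same controls read 0 h. The cells were grown in alpha-MEM with fetal bovine serum.

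Each gene has an HHT response in each line, which is the log2 ratio of HHT over control. The quantity followed here is the difference of those responses, G7 minus F3, called the line difference below. A positive line difference means a larger rise or a smaller fall in G7, and a negative one a smaller rise or a larger fall in G7. It was computed for all 14435 genes that passed the filter on low counts, with edgeR's quasi-likelihood test over the 4 groups, and a gene was called at a Benjamini-Hochberg adjusted p under 0.05. Beyond that filter, no measured value chose the genes tested. The genes named below were picked partly by their values, and the gene lists were written with earlier results of these data known. Levels are CPM, the share of a library in reads scaled with TMM factors.

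HHT is a plant alkaloid that binds the ribosome and stops new chains early in elongation, and it is used against myeloid leukaemia. Proteins with a short life fall first under such a block. Cells also answer it with induced transcripts, among them immediate early genes, whose messages and repressors normally turn over fast. RUNX1 is a transcription factor of blood stem and myeloid cells that binds DNA with its partner CBFB, and a stop in its DNA-binding Runt domain removes the rest of the protein. The series title places the libraries in a study of treating RUNX1-mutated AML by blocking translation together with BCL2, and no stated aim concerns the difference between the lines.

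Library totals ranged from 19250789 to 21925693 counts, so depth differed little between groups. Libraries are named by line, treatment and the replicate number in the library name. Replicate libraries correlated at r = 0.992 to 0.995 on the log CPM scale. Replicate counts differed by more than sampling noise in every group, and all 8 were kept as separate libraries. The chi-square over its degrees of freedom was lowest in F3 HHT (2.95) and highest in G7 control (11.3). The G7 controls were the least alike pair: 1.92% of the 10146 genes with a mean of at least 5 CPM differed by over 1.5-fold between these 2 libraries, against 0.532% in G7 HHT, 0.325% in F3 HHT and 0.542% in F3 control. In the highest of 10 equal bins of GC content G7 control 2 lay 0.122 above and G7 control 3 0.122 below their group mean (median log2), and in F3 no library lay more than 0.0067 from its group mean there. Of the markers that check the myeloid label, granule proteins summed to 4084 to 15240 CPM and monocyte and granulocyte genes to 1902 to 2348 CPM over the 8 libraries. Of the markers of other cells, 24 lymphoid genes summed to 52.5 to 192 CPM (6 at 0 in all 8 libraries), 15 megakaryocyte genes to 15.97 to 60.02 CPM (3 at 0), 18 erythroid genes to 4.38 to 16.2 CPM (12 at 0) and 17 genes of adherent cells to 3.56 to 16.3 CPM (7 at 0). Each of these 4 sums was lower in every HHT library than in the controls of its line. RUNX1 itself had 172 and 176 CPM in the G7 HHT libraries and 135 and 118 CPM in the G7 controls, against 143 and 144 CPM in the F3 HHT libraries and 81.2 and 85.0 CPM in the F3 controls, and every HHT library was above both controls of its line. The line difference was -0.33 (edgeR adjusted p = 0.135), which is not called, and counts per gene do not read the R174* allele.

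The 2 lines answered HHT much alike. HHT changed 10274 genes in G7 (71.2% of those tested) and 10359 in F3 (71.8%), and of the 9034 genes called in both lines 8983 moved the same way. Across all 14435 genes the responses correlated at r = 0.91 between the lines, with genes as the points and no library shared, and the orthogonal slope of G7 on F3 was 0.93. The median absolute response was 0.68 in G7 and 0.71 in F3. In these bulk libraries fewer cells of a type and less RNA per cell cannot be told apart, and all values are relative levels. Directions are relative to the median gene as well. With library totals alone as the scale the median response was 0.22 in both lines, and 62.2% of calls in G7 and 61.9% in F3 were rises, against 50.9% and 51.9% with TMM factors. Of the genes named below, the falls of OLIG1, IFI6, TNFRSF1B, GATA2, CDKN2A, CCND1, PSMB2, EIF5A and CD47 in G7 and of MLX in F3 were not called on that scale, and the rises of MNT and SDF2L1 in F3 were not called with size factors by relative log expression. Library totals alone also added calls: SLC2A3, NFE2, MLX, MCM7, UQCRFS1 and CDK6 were then called as rises in G7, and SNHG7, TRIB3, COX5A and PSMB2 as rises in F3. The line difference had a median over all genes of 0.00 with TMM factors and 0.02 with totals.

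A line difference was called for 548 genes, 3.8% of those tested. It was positive for 259 genes (1.79%) and negative for 289 (2%), and 534 of the 548 are protein-coding. Those shares, 1.79% and 2% of all genes, are the background for every list count below. An absolute line difference of at least 1, a 2-fold gap between the responses, was reached by 114 of them (0.79%), 53 positive (0.367%) and 61 negative (0.423%). Among the 548, the response was larger in absolute size in G7 for 195 genes and in F3 for 353. The number called depended on single libraries: it was 178 without F3 control 2, 251 without F3 HHT 3, 269 without G7 HHT 1, 329 without F3 control 3, 344 without F3 HHT 1 and 356 without G7 HHT 2, but 858 without G7 control 2 and 1089 without G7 control 3. Each such fit leaves 1 library in a group, whose spread is then taken from the other groups. In the paragraphs below, brackets after a gene that name a library give the library without which edgeR no longer called it, and the adjusted p then reached, as a range where each of several libraries did so. Where a count of 0 calls by edgeR is printed for a list, the number of its genes with an unadjusted p under 0.05 in that direction stands beside it, and DESeq2 and limma-voom called 0 as well unless stated.

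Other settings ended further calls among the genes named below. DESeq2 did not call FADD, FTH1, NDUFAF8 and SRXN1, and limma-voom did not call ARVCF, CCL3L1, EEF2K, NLRP1 and TRIB1. With the wild-type libraries sharing the spread BCL2, BTG1, CCL3L1, CTSG, CYBB, EBNA1BP2, EEF2K, IL1RAP, NDUFAF8, NLRP1, OAS3, POLA2, SLC1A5, SNHG7 and TRIB1 were not called. With library totals alone EEF2K, IL1RAP, OAS3, POLA2 and TRIB2 were not called, with size factors by relative log expression CTSG, MCM7 and POLA2, and without a filter on low counts POLA2.

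**Figure D1:**
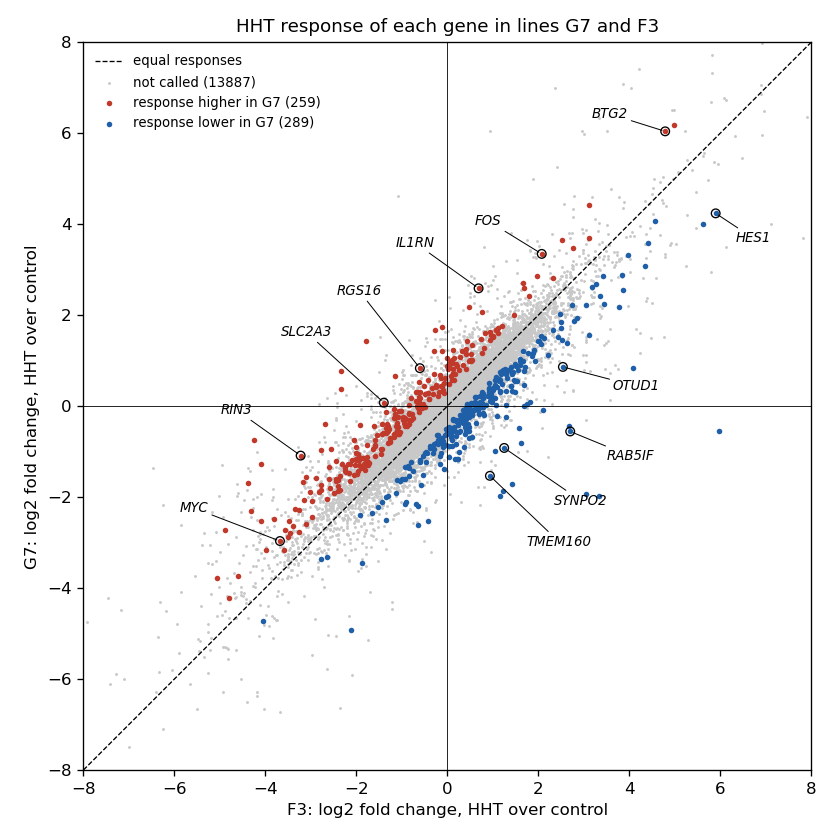
Log2 fold change of HHT over control in G7 (vertical axis) and in F3 (horizontal axis) for each gene tested, with the 259 genes called with a positive line difference in red, the 289 called with a negative one in blue, and circles around the 12 genes named. Most genes lie along the dashed line of equal responses, the called genes flank it on both sides, and 9 genes lie beyond the axes.

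The largest class of called genes fell further in F3. These 133 genes had a median response of -1.23 in G7 and -1.97 in F3. A larger rise in F3 was seen for 98 genes (median 0.81 in G7 and 1.50 in F3), a larger fall in G7 for 47 (-1.50 in G7 and -0.84 in F3) and a larger rise in G7 for 44 (1.59 in G7 and 0.93 in F3). In other genes the response passed the test in 1 line alone: 67 rose in F3 alone, 47 fell in G7 alone, 33 fell in F3 alone and 32 rose in G7 alone. The last 47 genes (0.326% of those tested) moved in opposite directions, 30 of them falling in G7 and rising in F3, and 17 rising in G7 and falling in F3.

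A line difference can come with a gap between the lines in the controls, after HHT, or in both. G7 and F3 differed in 2727 genes in the controls (18.9% of those tested) and in 3015 after HHT (20.9%). Without F3 control 3 or F3 control 2 the first count was 1548 or 1628, and without F3 HHT 3, G7 HHT 1 or F3 HHT 1 the second was 1438, 1618 or 1754. After HHT 45.7% of these calls were higher in G7, against 56% with library totals alone as the scale. Of the 548 genes, 222 differed between the lines after HHT and not in the controls, and 192 differed in the controls and not after HHT. In 66 genes the lines differed in both states with opposite sign, in 61 with the same sign, and in 7 in neither state. RIN3 and OTUD1 are of the first kind, and ATF5, PREX1 and TNFRSF1B of the second: their levels stood apart by about 1 log2 unit in the controls (-0.95, -0.93 and -0.98, G7 minus F3) and by -0.03, -0.04 and -0.06 after HHT.

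**Figure D2:**
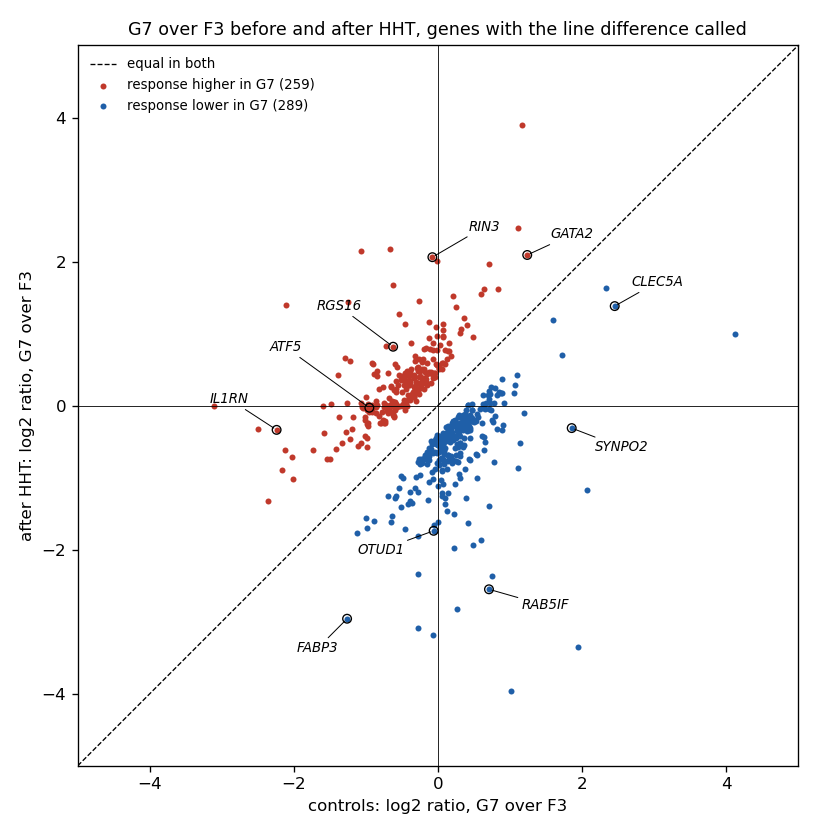
Log2 ratio of G7 over F3 in the controls (horizontal axis) and after HHT (vertical axis) for the 548 genes with the line difference called, red where it is positive and blue where it is negative, with 10 genes circled. The vertical distance of a point from the dashed line is its line difference, so no point lies on it. ATF5 and IL1RN start apart and end near the horizontal axis, RIN3 and OTUD1 start near 0 and end apart, and 1 gene lies beyond the axes.

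Among genes with a mean of at least 5 CPM, 6 of the 10 largest positive line differences belonged to genes that fell under HHT in both lines and fell less in G7. RIN3, a guanine nucleotide exchange factor for RAB5 on chromosome 14 from 92513774 to 92688994 (GRCh38, as are all gene positions here), had 18.1 and 18.9 CPM in the G7 HHT libraries and 40.4 and 38.1 CPM in the G7 controls, against 4.04 and 4.82 CPM in the F3 HHT libraries and 40.1 and 42.7 CPM in the F3 controls. Controls of the lines overlapped and the HHT libraries were about 4 times as high in G7. RIN3 had a line difference of 2.14 ± 0.15 (SE, edgeR adjusted p = 2.29e-06), with responses of -1.09 in G7 and -3.22 in F3. SLC2A3, the glucose transporter GLUT3 on chromosome 12 from 7919230 to 7936275, had 107 and 112 CPM in the G7 HHT libraries and 98.5 and 109 CPM in the G7 controls, against 72.6 and 74.0 CPM in the F3 HHT libraries and 187 and 199 CPM in the F3 controls. HHT lowered it in F3 by 1.39 and its G7 libraries overlapped, at a line difference of 1.47 ± 0.11 (SE, edgeR adjusted p = 3.29e-06). IL1RN, the secreted antagonist of the interleukin-1 receptor, had 26.4 and 23.2 CPM in the G7 HHT libraries and 3.33 and 4.87 CPM in the G7 controls, against 29.9 and 32.6 CPM in the F3 HHT libraries and 16.3 and 22.5 CPM in the F3 controls. It rose in both lines (2.59 in G7 and 0.69 in F3) and started lower in G7. The line difference of IL1RN was 1.90 ± 0.23 (SE, edgeR adjusted p = 0.000495).

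GPNMB, a glycoprotein of lysosomal membranes in macrophages, fell by 2.71 in G7 and fell by 4.89 in F3 and had the largest positive line difference of the 10 (2.18, adjusted p = 0.00883), with 0.449 and 0.59 CPM with HHT and 3.22 and 3.69 CPM without it in G7, and 0.522 and 0.781 CPM with HHT and 18.4 and 20.7 CPM without it in F3. HSPG2, the matrix proteoglycan perlecan, fell by 2.51 in G7 and fell by 4.10 in F3. VSIR, the immune checkpoint receptor VISTA, fell by 1.55 in G7 and fell by 3.11 in F3. DNASE2, the acid nuclease of lysosomes, and IQSEC1, an exchange factor for ARF6, likewise fell more in F3 (-2.49 in G7 and -3.81 in F3 for DNASE2, -1.58 in G7 and -2.89 in F3 for IQSEC1). NLRP1, a sensor protein of inflammasomes, rose in both lines and rose more in G7 (4.43 in G7 and 3.11 in F3). Its G7 controls were near the floor at 0.818 and 0.535 CPM, against 2.94 and 2.59 CPM in the F3 controls. After HHT it was still lower in G7, at 15.9 and 13.4 CPM against 24.5 and 23.3 CPM in F3. RGS16, which speeds the GTPase of G protein alpha subunits, completes the 10 and is described with the genes of opposite response. The line differences of HSPG2, VSIR, DNASE2, IQSEC1 and NLRP1 were 1.59, 1.56, 1.33, 1.32 and 1.32. Single libraries decided GPNMB (G7 HHT 2, 0.101) and HSPG2 (F3 control 2, 0.0504). Calls lost without 1 library were DNASE2 (G7 HHT 2, F3 HHT 1 or F3 control 2, 0.0597 to 0.0799) and NLRP1 (any library but G7 HHT 2, G7 control 2 and F3 HHT 1, 0.0595 to 0.145).

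At the other end, the 10 genes with the most negative line differences all rose in F3, and in G7 they rose less, fell or did not pass the test. OTUD1, a deubiquitinase on chromosome 10 from 23439458 to 23442390, had 29.6 and 29.5 CPM in the G7 HHT libraries and 15.1 and 17.4 CPM in the G7 controls, against 94.7 and 103 CPM in the F3 HHT libraries and 17.0 and 16.9 CPM in the F3 controls. The controls of the 2 lines stood close together, and the F3 HHT libraries were over 3 times the G7 HHT libraries. OTUD1 had a line difference of -1.68 ± 0.14 (SE, edgeR adjusted p = 6.2e-06). FABP3, a fatty acid-binding protein, had 4.13 and 3.54 CPM in the G7 HHT libraries and 3.87 and 3.48 CPM in the G7 controls, against 29.8 and 29.8 CPM in the F3 HHT libraries and 7.92 and 9.68 CPM in the F3 controls. HHT raised it in F3 alone, by 1.76, at a line difference of -1.70 ± 0.22 (SE, edgeR adjusted p = 0.000573). HES1, a transcriptional repressor and target of Notch, rose in both lines (4.24 in G7 and 5.90 in F3) at 69.1 and 76.1 CPM with HHT and 4.36 and 3.32 CPM without it in G7, and 99.3 and 109 CPM with HHT and 1.71 and 1.76 CPM without it in F3. ARVCF, a catenin of cell junctions, rose likewise (4.00 in G7 and 5.62 in F3). The line differences were -1.66 for HES1 and -1.62 for ARVCF.

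In 5 more of these 10 single libraries varied. RAB5IF, a factor that interacts with RAB5, had 5.52 and 6.07 CPM in the G7 HHT libraries and 12.4 and 4.65 CPM in the G7 controls, against 26.8 and 41.2 CPM in the F3 HHT libraries and 5.08 and 5.33 CPM in the F3 controls. TMEM160, a small membrane protein, had 5.70 and 7.25 CPM in the G7 HHT libraries and 26.2 and 11.3 CPM in the G7 controls, against 18.8 and 28.7 CPM in the F3 HHT libraries and 12.2 and 12.6 CPM in the F3 controls. FADD, the adaptor that joins death receptors to caspases, had 6.60 and 7.80 CPM in the G7 HHT libraries and 11.4 and 3.90 CPM in the G7 controls, against 27.7 and 28.9 CPM in the F3 HHT libraries and 6.48 and 6.67 CPM in the F3 controls. In all 3 genes G7 control 2 was more than 2 times G7 control 3, and both F3 HHT libraries were above both F3 controls. C4orf48 and NDUFAF8, an assembly factor of respiratory complex I, were likewise higher in G7 control 2 than in G7 control 3 (6.37 and 7.21 CPM with HHT and 17.8 and 9.20 CPM without it in G7, and 15.7 and 26.2 CPM with HHT and 9.15 and 11.1 CPM without it in F3 for C4orf48). SYNPO2, the last of the 10, is described with the genes of opposite response. Of the 10, these 5 differed by over 1.5-fold between the G7 controls and 4 between the F3 HHT libraries, whereas among all 512 called genes of at least 5 CPM 4.49% and 0.977% did. The part of these gaps between libraries in the line differences was not tested. Their values were -3.26 for RAB5IF, -2.47 for TMEM160, -2.19 for FADD, -2.04 for C4orf48 and -1.67 for NDUFAF8, with edgeR adjusted p of 0.000708, 0.00245, 0.00478, 0.00473 and 0.016. Leaving out 1 library ended the calls of ARVCF (G7 control 2, F3 control 2 or F3 control 3, 0.0821 to 0.126) and FADD (F3 control 2, 0.0726). Fits without 1 library lost C4orf48 (F3 control 2, 0.0817) and NDUFAF8 (G7 HHT 1, G7 control 2, F3 control 2 or F3 control 3, 0.0509 to 0.164).

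A change of direction was rare. The 30 genes that fell in G7 and rose in F3 had median responses of -0.50 in G7 and 0.42 in F3, and the 17 others 0.39 in G7 and -0.49 in F3. SYNPO2, an actin-binding protein on chromosome 4 from 118850688 to 119061247, had 20.4 and 21.0 CPM in the G7 HHT libraries and 39.1 and 39.0 CPM in the G7 controls, against 25.3 and 26.0 CPM in the F3 HHT libraries and 12.1 and 9.47 CPM in the F3 controls. It fell by 0.92 in G7 and rose by 1.25 in F3, no HHT library overlapped a control of its line, and the line difference was -2.17 ± 0.15 (SE, edgeR adjusted p = 2.29e-06). RGS16, on chromosome 1 from 182598623 to 182604408, had 80.8 and 88.5 CPM in the G7 HHT libraries and 46.2 and 48.5 CPM in the G7 controls, against 49.6 and 46.5 CPM in the F3 HHT libraries and 72.1 and 73.6 CPM in the F3 controls. It rose by 0.84 in G7 and fell by 0.60 in F3, so that the F3 HHT libraries overlapped the G7 controls and the G7 HHT libraries were above the other 6. RGS16 had a line difference of 1.44 ± 0.12 (SE, edgeR adjusted p = 6.2e-06). STOX2, PRDM8 and OLIG1, a basic helix-loop-helix factor of the oligodendrocyte lineage, fell in G7 and rose in F3 (-0.67 in G7 and 0.56 in F3 for STOX2, -0.69 in G7 and 0.48 in F3 for PRDM8, -0.55 in G7 and 0.48 in F3 for OLIG1). These 5 genes, C4orf48, TMEM160 and the interferon-stimulated gene IFI6 are the 8 protein-coding genes of at least 5 CPM whose smaller opposite response was largest. Counted without 1 library, the opposite genes were 21 without F3 control 2, 27 without F3 HHT 3, 30 without G7 HHT 1 and 89 without G7 control 3. With size factors by relative log expression 49 genes were opposite and 43 of them were among the 47. With library totals alone the set changed more: 46 genes were opposite and 22 of them were among the 47, and OLIG1 and IFI6 then had G7 responses of -0.33 and -0.23 that were not called. The call of OLIG1 (G7 HHT 2, F3 HHT 3, F3 control 2 or F3 control 3, 0.0544 to 0.152) rested on single libraries.

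**Figure D3:**
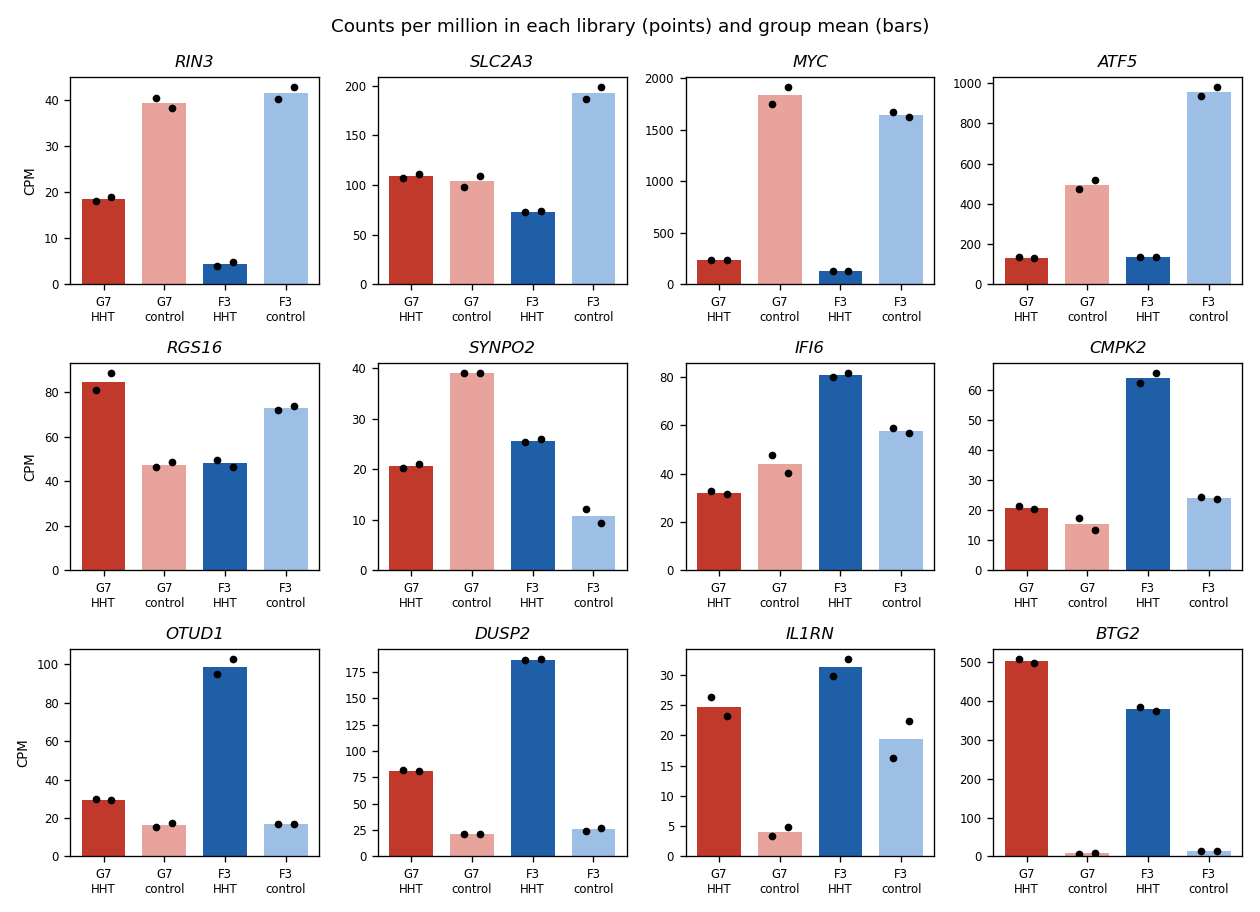
CPM of 12 genes in the 8 libraries, with points for single libraries and bars for the group means, in the order G7 HHT, G7 control, F3 HHT and F3 control, each panel on its own axis from 0. RIN3 and OTUD1 differ between the lines after HHT, ATF5 and IL1RN differ mainly in the controls, and RGS16, SYNPO2 and IFI6 change in opposite directions.

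Within each class, the 4 genes with the smallest p had other functions as well. A larger rise in G7 was clearest for BTG2, an antiproliferative cofactor of mRNA deadenylation, IL1RN, FOS, and MILR1, an inhibitory receptor of mast and myeloid cells. MILR1 rose by 1.43 in G7 and by 0.43 in F3 (0.99, adjusted p = 0.00288). A larger rise in F3 was clearest for OTUD1, ADORA2B, an adenosine receptor, CLEC5A, a lectin receptor of myeloid cells, and CCDC71L. ADORA2B had 18.2 and 18.2 CPM in the G7 HHT libraries and 15.8 and 13.5 CPM in the G7 controls, against 45.0 and 45.2 CPM in the F3 HHT libraries and 15.3 and 16.9 CPM in the F3 controls. It rose by 0.32 in G7 and by 1.49 in F3, and the controls of the lines overlapped. CLEC5A rose by 1.13 in G7 and by 2.21 in F3 and was over 2 times as high in G7 in both states (73.5 and 70.5 CPM with HHT and 32.7 and 32.8 CPM without it in G7, and 27.4 and 27.8 CPM with HHT and 5.83 and 6.11 CPM without it in F3). CCDC71L rose by 2.56 in G7 and by 3.87 in F3.

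A larger fall in G7 was clearest for PPP1R27, a regulatory subunit of protein phosphatase 1, HSH2D, an SH2 domain adaptor of blood cells, SERPINB1, and SLC39A3, a zinc transporter. PPP1R27 had 229 and 220.3 CPM in the G7 HHT libraries and 839 and 660.3 CPM in the G7 controls, against 378 and 375 CPM in the F3 HHT libraries and 525 and 591 CPM in the F3 controls, at a line difference of -1.17 ± 0.14 (SE, edgeR adjusted p = 0.000425). All 4 genes were higher in G7 than in F3 among the controls, and PPP1R27 and SLC39A3 were lower in G7 after HHT. HSH2D fell by 2.50 in G7 and fell by 1.35 in F3, and SLC39A3 fell by 2.19 in G7 and fell by 0.64 in F3, with G7 controls of SLC39A3 at 129 and 74.2 CPM. A larger fall in F3 was clearest for RIN3, ATF5, PREX1, an exchange factor for RAC, and TNFRSF1B, the second receptor of tumour necrosis factor. PREX1 had 40.4 and 42.3 CPM in the G7 HHT libraries and 108 and 105 CPM in the G7 controls, against 43.5 and 41.7 CPM in the F3 HHT libraries and 203 and 204 CPM in the F3 controls, and its HHT libraries overlapped between the lines. The calls of MILR1, ADORA2B, CLEC5A, CCDC71L, PPP1R27, HSH2D, SLC39A3, PREX1 and TNFRSF1B held without any single library.

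Of the interferon-stimulated genes whose response differed between the lines, nearly all had the smaller rise or the larger fall in G7. These genes are switched on by interferon through the factor complex ISGF3, and they encode sensors and effectors against viruses. Of 58 tested, 14 had a negative line difference (2% of all genes tested did) and 1 a positive one (1.79% of all genes), and the median was -0.21 against 0.00 for all genes. HHT raised 41 of the 58 in G7 and 43 in F3 (36.2% and 37.3% of all genes) and lowered 11 in each line (35% and 34.5%). G7 was already the lower line in the controls for 33 of them (10.4% of all genes) and after HHT for 51 (11.3%). The count of 14 was 4 without F3 control 2, 6 without F3 control 3, 7 without F3 HHT 3, 8 without F3 HHT 1 and 9 without G7 HHT 2, and 10 to 18 without any other single library.

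CMPK2, a mitochondrial nucleotide kinase, had 21.4 and 20.3 CPM in the G7 HHT libraries and 17.4 and 13.4 CPM in the G7 controls, against 62.4 and 65.7 CPM in the F3 HHT libraries and 24.5 and 23.9 CPM in the F3 controls. The F3 HHT libraries stood far above the other 6. CMPK2 had a line difference of -0.97 ± 0.16 (SE, edgeR adjusted p = 0.00243). DDX58, which encodes the RNA sensor RIG-I, had 35.1 and 33.7 CPM in the G7 HHT libraries and 17.6 and 20.3 CPM in the G7 controls, against 65.6 and 65.0 CPM in the F3 HHT libraries and 20.3 and 19.6 CPM in the F3 controls. The controls overlapped between the lines and both HHT pairs were above them, the F3 pair by more. DDX58 had a line difference of -0.85 ± 0.13 (SE, edgeR adjusted p = 0.00217), and USP18, an enzyme that removes ISG15 and damps interferon signalling, one of -0.85 ± 0.15 (SE, edgeR adjusted p = 0.00473), with responses of 0.31 in G7 and 1.16 in F3. IFI6, an interferon-induced protein with antiviral activity, had 32.9 and 31.5 CPM in the G7 HHT libraries and 48.0 and 40.3 CPM in the G7 controls, against 79.9 and 81.7 CPM in the F3 HHT libraries and 58.8 and 56.8 CPM in the F3 controls. HHT lowered IFI6 in G7 and raised it in F3, at a line difference of -0.94 ± 0.13 (SE, edgeR adjusted p = 0.000894). The other 10 with a negative value were DHX58 (-0.76) and IFIH1 (-0.53), sensors related to RIG-I, IFIT1 (-0.71) and IFIT3 (-0.65), which act together on viral RNA, OAS2 (-0.47) and OAS3 (-0.59), synthetases of the signal for RNase L, and HERC5 (-0.56), PARP9 (-0.51), IFI44 (-0.56) and BST2 (-0.46). HERC5 and BST2 fell in both lines and fell more in G7. GBP2, a guanylate-binding protein, was the exception with a line difference of 0.87, and rose by 2.86 in G7 and by 1.98 in F3. Dependent on single libraries were DHX58 (F3 control 2 or F3 control 3, 0.0557 to 0.0926), IFIH1 (any library but G7 HHT 2, G7 control 2 and G7 control 3, 0.0636 to 0.124) and IFIT1 (F3 control 2, 0.0944). No longer called without 1 library were IFIT3 (F3 control 2, 0.0791), OAS2 (any library but G7 HHT 1 and G7 control 2, 0.0533 to 0.183) and OAS3 (any library but G7 HHT 1, G7 control 2 and G7 control 3, 0.0684 to 0.201). With 1 library left out, HERC5 (G7 HHT 1, F3 HHT 3, F3 control 2 or F3 control 3, 0.0583 to 0.142), PARP9 (any library but G7 control 2, 0.0659 to 0.242) and IFI44 (any library but G7 control 2, 0.0616 to 0.217) were lost. Without 1 library, the calls of BST2 (any library but the G7 controls, 0.0629 to 0.191) and GBP2 (G7 HHT 1, F3 HHT 1 or F3 control 3, 0.0517 to 0.0847) were lost.

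ISGF3 binds the interferon-stimulated response element, and the core GAAANNGAAA of that element was searched on both strands in the window from 250 bases before to 50 bases after each RefSeq transcription start (build GRCh38.p14). Of the 14 genes with a negative line difference 11 had a window, and 9 of these (81.8%) held the core. It was held by 22 of 35 uncalled interferon-stimulated genes with a window (62.9%) and by 3.57% of all 35116 windows. The last share is per window, whereas a gene was counted if any of its windows held the core, and some genes have several. The gene shares are thus not on the same unit as the 3.57%. DDX58 and CMPK2 had no match in their windows. The stretches below show the core in capitals, or its reverse complement TTTCNNTTTC, in 4 of the genes, each read 5′ to 3′ on the strand of the gene.
IFI6, chr1:27672266-27672295, minus strand: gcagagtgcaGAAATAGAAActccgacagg
IFIT1, chr10:89392510-89392539, plus strand: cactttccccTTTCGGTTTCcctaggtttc
IFIH1, chr2:162318686-162318715, minus strand: gaagagaatcGAAACAGAAAccaaagtcag
BST2, chr19:17405735-17405764, minus strand: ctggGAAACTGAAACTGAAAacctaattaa
The printed copy ends 83 bases before the start in IFI6, 93 in IFIT1, 11 in IFIH1 and 114 in BST2, where 2 overlapping copies share 4 bases. Genes with the core both rose and fell: the responses were -0.45 in G7 and 0.48 in F3 for IFI6, 1.17 in G7 and 1.88 in F3 for IFIT1, 0.87 in G7 and 1.40 in F3 for IFIH1 and -1.32 in G7 and -0.86 in F3 for BST2.

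**Figure D4:**
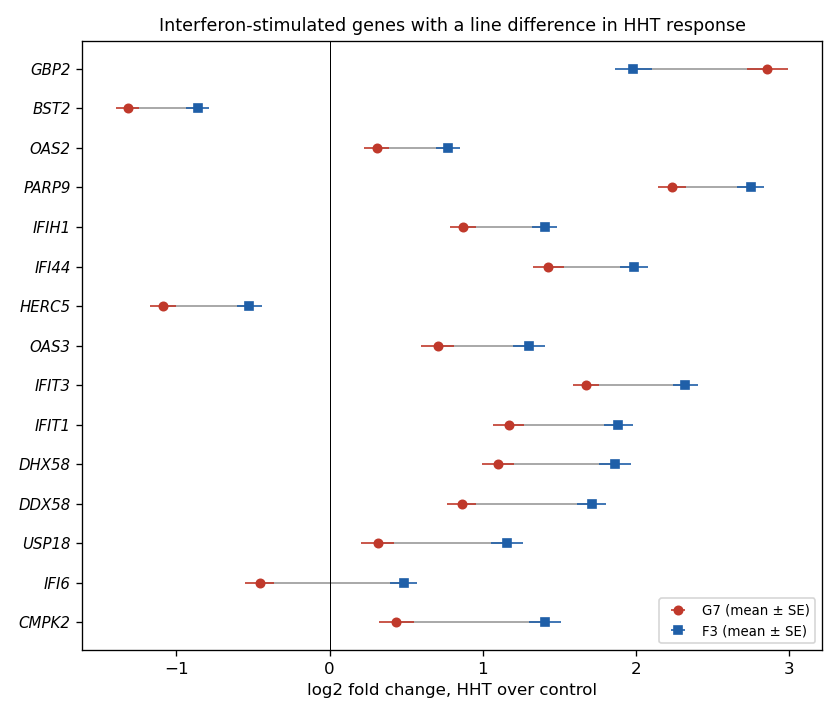
Log2 fold change of HHT over control, with its SE, in G7 (red circles) and F3 (blue squares) for the 15 interferon-stimulated genes with the line difference called, ordered from the most positive difference at the top. In 14 genes the G7 value is to the left of the F3 value, in GBP2 to the right, and IFI6 lies on opposite sides of 0.

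Most immediate early genes rose in both lines, 46 of the 54 tested in G7 and 47 in F3 (36.2% and 37.3% of all genes). The line difference was negative for 9 (16.7%, against 2% of all genes) and positive for 4 (7.41%, against 1.79%), with a median of -0.16. DUSP2, a phosphatase that inactivates ERK in the nucleus, had 81.5 and 81.2 CPM in the G7 HHT libraries and 21.3 and 20.9 CPM in the G7 controls, against 186 and 187 CPM in the F3 HHT libraries and 24.2 and 27.1 CPM in the F3 controls, and its HHT libraries were over 2 times as high in F3, whereas the controls differed by 0.28 on the log2 scale. DUSP2 had a line difference of -0.91 ± 0.12 (SE, edgeR adjusted p = 0.000667). DUSP1 also rose more in F3 (1.39 in G7 and 2.63 in F3), as did FOSL1, an AP-1 subunit (1.45 in G7 and 2.54 in F3), and IER5, an immediate early gene that is also a target of p53 (0.34 in G7 and 1.17 in F3). The line differences were -1.24 for DUSP1, -1.08 for FOSL1 and -0.83 for IER5. JUN, the partner of FOS in AP-1, rose by 3.32 in G7 and by 3.97 in F3. TRIB1, BTG1 and ZFP36L2 were negative as well, with line differences of -0.50, -0.48 and -0.52. The last was ARC, which was at 0 in both F3 controls and at 0.304 to 0.763 CPM in the other 6 libraries, so that no fold is given for it.

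FOS and BTG2 went the other way. FOS, the AP-1 subunit, had 38.4 and 43.2 CPM in the G7 HHT libraries and 3.71 and 4.28 CPM in the G7 controls, against 73.9 and 77.7 CPM in the F3 HHT libraries and 18.0 and 17.9 CPM in the F3 controls. It was lower in G7 in both states and the gap narrowed after HHT, at a line difference of 1.27 ± 0.16 (SE, edgeR adjusted p = 0.000508). BTG2 had 508 and 498 CPM in the G7 HHT libraries and 7.25 and 7.97 CPM in the G7 controls, against 384 and 373 CPM in the F3 HHT libraries and 14.2 and 13.1 CPM in the F3 controls. Its controls were lower and its HHT libraries higher in G7, and its line difference was 1.25 ± 0.13 (SE, edgeR adjusted p = 0.000123). DUSP4 and MYC were the other positive genes. Of the 9 dual-specificity phosphatases tested, 2 had a negative value (DUSP1 and DUSP2, 22.2% against 2% of all genes). The 1 with a positive value (11.1%, against 1.79%) was DUSP4, which rose by 1.47 in G7 and by 0.74 in F3 (0.73, edgeR adjusted p = 0.0109). Of 14 genes that ERK signalling induces as feedback, 2 were negative (14.3%, against 2% of all genes) and 1 positive (7.14%, against 1.79%). SPRY2, an inhibitor of receptor signalling to ERK, rose by 2.23 in G7 and by 3.06 in F3 (-0.82, edgeR adjusted p = 0.0018), with FOSL1 on the same side and DUSP4 on the other. The count of 9 negative immediate early genes was 3 without F3 control 2 and 5 without F3 HHT 3 or F3 control 3, and the 2 of ERK feedback were 1 without F3 control 2. Single libraries decided FOSL1 (F3 control 2, 0.0598), IER5 (F3 control 2, 0.0817) and DUSP4 (F3 HHT 1, 0.0523). Calls lost without 1 library were TRIB1 (any library but G7 control 3, 0.0607 to 0.175), BTG1 (any library but G7 control 2, 0.0827 to 0.219) and ZFP36L2 (G7 HHT 1, F3 HHT 3, F3 control 2 or F3 control 3, 0.0794 to 0.0988). The call of ARC (F3 HHT 3, F3 control 2 or F3 control 3, 0.085 to 0.125) rested on single libraries.

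Of 24 chemokines and inflammatory cytokines tested, 4 had a positive line difference (16.7%, against 1.79% of all genes). A negative one was called for 0 (2 at an unadjusted p under 0.05). Their median was 0.28, and HHT raised 17 in G7 and 15 in F3 (36.2% and 37.3% of all genes). CXCL8, the neutrophil chemokine interleukin-8, had 242 and 257 CPM in the G7 HHT libraries and 21.4 and 23.3 CPM in the G7 controls, against 127 and 122 CPM in the F3 HHT libraries and 17.2 and 19.0 CPM in the F3 controls. It reached about 2 times the F3 level in G7 after HHT, with controls much closer together, at a line difference of 0.70 ± 0.13 (SE, edgeR adjusted p = 0.00473). TNF rose by 3.66 in G7 and by 2.53 in F3 and its HHT libraries overlapped between the lines (61.5 and 54.4 CPM with HHT and 5.18 and 4.01 CPM without it in G7, and 55.6 and 50.7 CPM with HHT and 10.9 and 7.45 CPM without it in F3). The line difference of TNF was 1.12. CCL3L1, a macrophage chemokine, rose by 6.18 in G7 and by 4.98 in F3 (1.20, adjusted p = 0.0487), though reads of its near copies CCL3 and CCL3L3 can be split between the genes and make its count uncertain. IL1RN, the 4th, encodes a receptor antagonist and not an inflammatory cytokine. Of the 18 subunits and feedback genes of NF-kB, 0 were called in either direction by edgeR (1 positive and 4 negative at an unadjusted p under 0.05), with a median of -0.07. The 4 positive cytokine genes were 2 without F3 control 2. Leaving out 1 library ended the calls of TNF (F3 control 2, 0.098) and CCL3L1 (any library but G7 control 3, 0.0664 to 0.232).

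Genes of the integrated stress response and of amino acid supply mostly fell in both lines. ATF4 drives this programme when translation initiation is curbed or amino acids run short. HHT lowered 39 of the 49 tested in G7 and 42 in F3 (35% and 34.5% of all genes). The line difference was positive for 5 (10.2%, against 1.79% of all genes) and negative for 0 (1 at an unadjusted p under 0.05). Of the 49 values 39 lay above 0, and the median was 0.18. The 5 were 10 without G7 control 3 and 4 to 6 without any other single library. ATF5, a transcription factor of the response, had 135 and 132 CPM in the G7 HHT libraries and 472 and 518 CPM in the G7 controls, against 139 and 134 CPM in the F3 HHT libraries and 934 and 979.7 CPM in the F3 controls. Its controls were about 2 times as high in F3 and the HHT libraries overlapped, at a line difference of 0.92 ± 0.11 (SE, edgeR adjusted p = 0.000371). DDIT3, which encodes CHOP, showed the same shape, with 29.1 and 31.9 CPM in the G7 HHT libraries and 48.2 and 53.6 CPM in the G7 controls, against 31.0 and 30.7 CPM in the F3 HHT libraries and 92.0 and 93.6 CPM in the F3 controls. DDIT3 had a line difference of 0.85 ± 0.12 (SE, edgeR adjusted p = 0.00132).

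SLC7A5, a transporter of large neutral amino acids, fell by 3.16 in G7 and fell by 3.98 in F3 (0.82, adjusted p = 0.00278), and SLC1A5, a glutamine transporter, fell by 2.77 in G7 and fell by 3.25 in F3 (0.48, adjusted p = 0.0384). TRIB3, a pseudokinase induced by ATF4 and CHOP, differed from these: it rose by 1.06 in G7 and had a response of 0.15 in F3 that was not called (0.36 and called with library totals alone), with 502 and 503 CPM with HHT and 267 and 215 CPM without it in G7, and 324 and 318 CPM with HHT and 293 and 285 CPM without it in F3. TRIB3 had a line difference of 0.91 ± 0.13 (SE, edgeR adjusted p = 0.000894). In the controls 18 of the 49 genes were lower and 2 higher in G7 (10.4% and 8.53% of all genes), and after HHT 10 were lower and 4 higher (11.3% and 9.54%). Among 32 genes of the unfolded protein response, DDIT3 was positive (3.12%, against 1.79% of all genes) and 2 were negative (6.25%, against 2%). The negative ones were SDF2L1 and MANF, proteins of the endoplasmic reticulum (-1.26 and -0.59), SDF2L1 with responses of -1.01 in G7 and 0.25 in F3. Among 41 heat shock proteins and chaperones 3 were negative (7.32%, against 2% of all genes) and 0 positive (also 0 at an unadjusted p under 0.05). STIP1, a co-chaperone of HSP90, rose more in F3 (0.28 in G7 and 0.77 in F3). HSPE1, the mitochondrial chaperonin HSP10, and HSPB1, the small heat shock protein HSP27, fell more in G7 (-1.24 in G7 and -0.61 in F3 for HSPE1, -1.17 in G7 and -0.60 in F3 for HSPB1). The 3 were 0 without G7 HHT 1, F3 HHT 1, F3 HHT 3 or F3 control 2, 1 without G7 HHT 2, 5 without F3 control 3 and 7 without G7 control 2. The 2 negative genes of the unfolded protein response were 1 without G7 HHT 1 or F3 control 2 and 4 without G7 control 3. Fits without 1 library lost SLC1A5 (any library but the G7 controls, 0.0556 to 0.276), MANF (G7 HHT 1 or F3 control 2, 0.0608 to 0.0976) and STIP1 (any library but G7 control 2, G7 control 3 and F3 control 3, 0.0636 to 0.153). Dependent on single libraries were HSPE1 (G7 HHT 1, F3 HHT 1, F3 HHT 3 or F3 control 2, 0.066 to 0.133) and HSPB1 (any library but G7 control 2, G7 control 3 and F3 control 3, 0.0503 to 0.158).

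MYC and MYB fell in both lines, and fell less in G7. MYC, the growth-promoting transcription factor, had 238 and 233 CPM in the G7 HHT libraries and 1755 and 1916 CPM in the G7 controls, against 130.0 and 128 CPM in the F3 HHT libraries and 1673 and 1622 CPM in the F3 controls. The HHT libraries were higher in G7 by 0.87 on the log2 scale and the controls by 0.16. MYC had a line difference of 0.71 ± 0.11 (SE, edgeR adjusted p = 0.00162). MYB, a factor of immature blood cells, had 267 and 283 CPM in the G7 HHT libraries and 709 and 816 CPM in the G7 controls, against 161 and 161 CPM in the F3 HHT libraries and 721 and 709.5 CPM in the F3 controls, with overlapping controls and a line difference of 0.68 ± 0.11 (SE, edgeR adjusted p = 0.00293). Of the 14 members of the MYC and MAX network 3 were positive (21.4%, against 1.79% of all genes) and 0 negative (2 at an unadjusted p under 0.05). MNT, a MAX partner that represses, rose by 0.88 in G7 and by 0.22 in F3 (line difference 0.65), and MLX fell in F3 alone, by 0.40 (0.57). Without F3 HHT 1 or F3 HHT 3 the 3 were 1.

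Of 27 genes reported in other studies to respond to RUNX1, 4 were positive (14.8%, against 1.79% of all genes) and 2 negative (7.41%, against 2%). Their median was 0.17. NFE2, a factor of megakaryocytes and erythroid cells, had 46.9 and 45.3 CPM in the G7 HHT libraries and 49.8 and 41.1 CPM in the G7 controls, against 19.1 and 20.6 CPM in the F3 HHT libraries and 35.6 and 35.3 CPM in the F3 controls. HHT lowered it in F3 alone and its G7 libraries overlapped, at a line difference of 0.86 ± 0.14 (SE, edgeR adjusted p = 0.00278). CCND3, which encodes cyclin D3, rose by 1.62 in G7 and by 1.12 in F3 (0.50, adjusted p = 0.02). MYB and BCL2 were the other positive genes of that list, and MPO and TRIB2 (-0.59), a pseudokinase, the negative ones. The list had 2 positive genes without G7 HHT 2, F3 HHT 1, F3 HHT 3 or F3 control 2. It had 0 negative genes without G7 HHT 2, F3 HHT 1, F3 control 2 or F3 control 3, and 1 without G7 HHT 1, G7 control 2 or F3 HHT 3. Of 25 stem and progenitor transcription factors, MYB and GATA2 were positive (8%, against 1.79% of all genes) and CEBPD negative (4%, against 2%). GATA2, required in blood stem cells, was higher in G7 in both states (80.1 and 70.1 CPM with HHT and 113 and 95.4 CPM without it in G7, and 18.7 and 16.5 CPM with HHT and 46.9 and 41.4 CPM without it in F3) and fell by 0.47 in G7 and fell by 1.32 in F3 (0.85, adjusted p = 0.0049). CEBPD, a factor of myeloid maturation, fell in G7 alone, by 1.37, with 51.2 and 62.1 CPM with HHT and 182 and 112 CPM without it in G7, and 117 and 153 CPM with HHT and 138 and 143 CPM without it in F3, so that G7 control 2 was well above G7 control 3. Its line difference was -1.31.

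CBFA2T3, a corepressor of the ETO family and the called member among 6 genes of the RUNX family and its partners, fell by 2.27 in G7 and fell by 3.34 in F3 (1.07, adjusted p = 0.00085). HOXA10 was the 1 called gene among 14 of the HOXA, MEIS1 and PBX3 programme and rose in F3 alone, by 0.82 (-1.02, adjusted p = 0.00901). SPI1, CEBPA, CDK6 and LMO2, also tied to RUNX1 or to myeloid identity, were not called. Their line differences were -0.04, -0.32, -0.30 and -0.15, with edgeR adjusted p of 0.932, 0.382, 0.225 and 0.575. No longer called without 1 library were MNT (G7 HHT 1, F3 HHT 1, F3 HHT 3 or F3 control 3, 0.0517 to 0.0656), MLX (G7 HHT 2, F3 HHT 1, F3 HHT 3 or F3 control 2, 0.0631 to 0.0953) and CCND3 (any library but G7 HHT 1, G7 control 2 and G7 control 3, 0.0531 to 0.112). With 1 library left out, TRIB2 (any library but G7 control 3, 0.0612 to 0.153), GATA2 (F3 control 2, 0.0531) and CEBPD (F3 control 2, 0.0817) were lost. The call of HOXA10 (F3 control 2, 0.116) rested on single libraries.

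Of 16 genes tested on the list of granule proteins, which also holds the inhibitor SERPINB1, 15 fell under HHT in each line (35% of all genes in G7 and 34.5% in F3). Of the 16, 11 were higher in G7 in the controls (8.53% of all genes) and 10 after HHT (9.54%). The line difference was negative for 3 (18.8%, against 2% of all genes) and positive for 0 (1 at an unadjusted p under 0.05), with a median of -0.11, and the 3 were 1 without G7 HHT 2, F3 HHT 1, F3 control 2 or F3 control 3. SERPINB1, the inhibitor of neutrophil elastase, had 127 and 134 CPM in the G7 HHT libraries and 473 and 500.2 CPM in the G7 controls, against 109 and 104 CPM in the F3 HHT libraries and 224 and 239 CPM in the F3 controls. Its gap between the lines shrank after HHT, at a line difference of -0.78 ± 0.11 (SE, edgeR adjusted p = 0.000887). MPO, the peroxidase of azurophilic granules, likewise fell more in G7 (-1.97 in G7 and -1.30 in F3). CTSG, the protease cathepsin G, stayed over 2 times as high in G7 with HHT (942 and 939 CPM with HHT and 2383 and 2332 CPM without it in G7, and 408 and 416 CPM with HHT and 746 and 811 CPM without it in F3), with responses of -1.33 in G7 and -0.92 in F3. Their line differences were -0.67 for MPO and -0.41 for CTSG.

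Monocyte and granulocyte surface and maturation genes had 3 positive line differences among 38 (7.89%, against 1.79% of all genes). They had 0 negative (2 at an unadjusted p under 0.05), with a median of 0.16. CYBB, the catalytic subunit of the phagocyte oxidase, rose by 0.99 in G7 and by 0.52 in F3. ITGAX, the integrin CD11c, rose in G7 alone, by 0.71. The 3 were 1 without G7 HHT 2, F3 HHT 3 or F3 control 2, 5 without G7 control 3 and 7 without G7 control 2. The summed level of the 46 listed genes was 1947 to 2042 CPM with HHT and 1907 to 1936 CPM without it in G7, and 1902 to 1930 CPM with HHT and 2333 to 2348 CPM without it in F3. CD74, the invariant chain, was the 1 called gene of 10 for MHC class II and fell by 1.84 in G7 and fell by 2.36 in F3 (0.51, adjusted p = 0.0141), and 0 of 14 for MHC class I were called by edgeR (0 positive and 1 negative at an unadjusted p under 0.05), at a median of -0.05. CD4, which monocytic cells also express, was the 1 called lymphoid marker of 7 tested, and fell by 1.87 in G7 and fell by 2.41 in F3 (0.54, adjusted p = 0.0125). Without 1 library, the calls of MPO (G7 HHT 2, F3 HHT 1, F3 control 2 or F3 control 3, 0.0728 to 0.138), CTSG (any library but the G7 controls, 0.0571 to 0.226) and CYBB (G7 HHT 2, F3 HHT 1, F3 HHT 3 or F3 control 2, 0.0701 to 0.191) were lost. Single libraries decided ITGAX (G7 HHT 1 or F3 control 2, 0.0719 to 0.111), CD74 (G7 HHT 1, F3 HHT 3 or F3 control 3, 0.0518 to 0.133) and CD4 (G7 HHT 1, F3 HHT 1, F3 HHT 3 or F3 control 2, 0.0505 to 0.113).

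Among 28 cytokine receptors and STAT5 feedback genes, 2 were positive (7.14%, against 1.79% of all genes) and 3 negative (10.7%, against 2%). TNFRSF1B fell by 0.25 in G7 and fell by 1.18 in F3, with 66.1 and 62.1 CPM in the G7 HHT libraries and 81.3 and 71.1 CPM in the G7 controls, against 66.3 and 66.9 CPM in the F3 HHT libraries and 150.1 and 151 CPM in the F3 controls, so the lines met after HHT. TNFRSF1B had a line difference of 0.93 ± 0.12 (SE, edgeR adjusted p = 0.000508). IL17RA, a receptor chain for interleukin-17, rose by 0.32 in G7 and fell by 0.60 in F3 (0.92, adjusted p = 0.0018). IL2RG, the common gamma chain, rose more in F3 (0.81 in G7 and 1.35 in F3), IL1RAP, the second chain of the interleukin-1 receptor, fell in G7 alone, by 0.51, and PIM1, a kinase induced by STAT5, rose in F3 alone, by 1.09, on 41 to 121 reads a library. Of 22 adhesion molecules, ITGAX was positive and CD47, the signal against engulfment, negative, with responses of -0.38 in G7 and 0.36 in F3. The line differences of IL2RG, IL1RAP, PIM1 and CD47 were -0.55, -0.49, -1.30 and -0.73. The 3 negative receptor genes were 0 without F3 control 2 and 1 without G7 HHT 1, F3 HHT 3 or F3 control 3, and the 2 positive ones were 4 without G7 control 3. Calls lost without 1 library were IL2RG (G7 HHT 1, F3 HHT 3, F3 control 2 or F3 control 3, 0.104 to 0.196), PIM1 (F3 control 2, 0.0959) and IL1RAP (any library but the G7 controls, 0.0718 to 0.18).

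Among apoptosis regulators, BCL2, the survival factor that the study's title pairs with translation, had 31.4 and 30.6 CPM in the G7 HHT libraries and 275 and 278 CPM in the G7 controls, against 26.0 and 24.7 CPM in the F3 HHT libraries and 322 and 292 CPM in the F3 controls. It fell in both lines and its HHT libraries were slightly higher in G7, at a line difference of 0.44 ± 0.11 (SE, edgeR adjusted p = 0.0424). BCL2 was the 1 called gene among 17 of its family, whose median was -0.01. In the negative direction edgeR called 0 of the family (1 at an unadjusted p under 0.05), and DESeq2 and limma-voom called 1 each. The call of BCL2 was also lost with the wild-type libraries sharing the spread. MCL1, a short-lived survival factor of the same family, had 888 and 959 CPM in the G7 HHT libraries and 177 and 177 CPM in the G7 controls, against 1309 and 1309 CPM in the F3 HHT libraries and 193 and 195 CPM in the F3 controls. HHT raised MCL1 by 2.38 in G7 and by 2.75 in F3. Its line difference of -0.37 missed the threshold (edgeR adjusted p = 0.0554) in this fit. It passed in 10 of 21 other settings, and each of these 10 kept all 8 libraries. Over the 21 settings the line difference of MCL1 lay between -0.44 and -0.33. BCL2L1, which encodes BCL-XL, had a line difference of -0.18 (adjusted p = 0.575 by edgeR). The list of caspases, inhibitor of apoptosis proteins and death receptors had 26 genes tested. TNFRSF1B was positive (3.85%, against 1.79% of all genes) and FADD, which DESeq2 did not call, negative (3.85%, against 2%). TNFRSF1B is also in the receptor list above, and its place here does not make it a death receptor. The call of BCL2 (any library but G7 control 2, G7 control 3 and F3 control 3, 0.114 to 0.268) rested on single libraries.

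Of 61 DNA replication genes 5 had a negative line difference (8.2%, against 2% of all genes) and 0 a positive one (also 0 at an unadjusted p under 0.05). Of the 61 values 55 lay below 0, and the median was -0.21. HHT raised 26 of them in G7 and 34 in F3 (36.2% and 37.3% of all genes). PCNA, the sliding clamp of DNA polymerases, rose in F3 alone, by 0.46, with 111 and 125 CPM with HHT and 119 and 134 CPM without it in G7, and 133 and 139 CPM with HHT and 95.6 and 103 CPM without it in F3. MCM5 and MCM7, subunits of the replicative helicase, and CDC45, its partner, had their responses higher in F3 (0.51 in G7 and 0.93 in F3 for MCM5, 0.04 in G7 and 0.44 in F3 for MCM7, 0.81 in G7 and 1.27 in F3 for CDC45). POLA2, a subunit of the primase complex, was the 5th (0.80 in G7 and 1.23 in F3). Their line differences lay between -0.55 (PCNA) and -0.40 (MCM7).

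Of 60 mitosis and spindle genes, CENPA, the centromeric histone, was negative (-0.53) and 0 were positive (also 0 at an unadjusted p under 0.05), with a median of -0.15. Of 22 regulators of G1, CCND3 was positive (4.55%, against 1.79% of all genes) and 3 were negative (13.6%, against 2%). CDKN2A, whose locus encodes the CDK4 inhibitor p16 and ARF, had 52.8 and 58.3 CPM in the G7 HHT libraries and 79.9 and 71.3 CPM in the G7 controls, against 89.9 and 99.7 CPM in the F3 HHT libraries and 63.0 and 78.1 CPM in the F3 controls. It fell by 0.45 in G7 and rose by 0.43 in F3, at a line difference of -0.87 ± 0.15 (SE, edgeR adjusted p = 0.00323). CDK2 rose more in F3 (0.39 in G7 and 1.01 in F3), and CCND1, cyclin D1, fell by 0.23 in G7 and rose by 0.31 in F3. Without G7 HHT 1, G7 HHT 2, F3 HHT 1, F3 control 2 or F3 control 3 the 3 negative G1 regulators were 1. Of 39 p53 targets BTG2 was positive and IER5 negative. The 5 negative replication genes were 0 without G7 HHT 1, F3 HHT 3, F3 control 2 or F3 control 3, 1 without G7 HHT 2 or F3 HHT 1, and 9 without G7 control 2. Leaving out 1 library ended the calls of POLA2 (any library but G7 control 3, 0.0559 to 0.233), PCNA (G7 HHT 1, F3 HHT 3, F3 control 2 or F3 control 3, 0.0628 to 0.17) and MCM5 (any library but the G7 controls, 0.0696 to 0.221). Fits without 1 library lost CDC45 (any library but G7 control 2, 0.064 to 0.261), MCM7 (any library but the G7 controls, 0.0794 to 0.227) and CENPA (G7 HHT 1, F3 HHT 3, F3 control 2 or F3 control 3, 0.0794 to 0.183). Dependent on single libraries were CDK2 (any library but G7 control 2, G7 control 3 and F3 HHT 3, 0.0517 to 0.147) and CCND1 (any library but G7 control 3, 0.0586 to 0.158).

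Of 41 genes of glycolysis and hypoxia, 37 fell in G7 and 38 in F3 (35% and 34.5% of all genes). The line difference was positive for SLC2A3 and HK2, a hexokinase (4.88%, against 1.79% of all genes). It was negative for PFKFB4, a regulator of fructose 2,6-bisphosphate (2.44%, against 2%). HK2 had 129.8 and 128 CPM in the G7 HHT libraries and 499.5 and 599.8 CPM in the G7 controls, against 94.4 and 87.1 CPM in the F3 HHT libraries and 714 and 705 CPM in the F3 controls, at a line difference of 0.87 ± 0.12 (SE, edgeR adjusted p = 0.00114). PFKFB4 fell by 4.72 in G7 and fell by 4.04 in F3 (-0.67). The 2 positive genes of this list were 8 without G7 control 3 and 2 without any other single library. LSS, lanosterol synthase of the cholesterol pathway and the 1 called gene of 35 there, fell by 1.89 in G7 and fell by 3.01 in F3 (1.12, adjusted p = 0.00473). TFRC, the transferrin receptor, fell by 2.63 in G7 and fell by 3.39 in F3 (0.76). FTH1, the ferritin heavy chain, rose in F3 alone, by 1.28 (-1.53), with G7 controls at 143 and 63.2 CPM, and reads of its many pseudogenes can enter or leave its count. SRXN1, a sulfiredoxin and the 1 called gene of 19 NRF2 targets, rested on 1 and 4 reads in G7 HHT, 12 and 4 in G7 control, 24 and 58 in F3 HHT and 3 and 5 in F3 control. No longer called without 1 library were PFKFB4 (any library but G7 control 2, G7 control 3 and F3 HHT 1, 0.0767 to 0.134), LSS (F3 control 2, 0.0531) and TFRC (G7 HHT 1, F3 HHT 3 or F3 control 2, 0.0669 to 0.0921). With 1 library left out, FTH1 (F3 control 2 or F3 control 3, 0.0595 to 0.161) and SRXN1 (G7 HHT 1, G7 control 2, F3 control 2 or F3 control 3, 0.0637 to 0.133) were lost.

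Most nuclear genes of mitochondrial function and of the proteasome had line differences below 0, few of them called. Of 77 nuclear subunits of oxidative phosphorylation, 71 line differences lay below 0, at a median of -0.22. The 2 called negative were 2.6%, close to the 2% of all genes. UQCRFS1, the Rieske protein of complex III, rose in F3 alone, by 0.69 (in both lines with library totals alone as the scale), though reads can be shared with its pseudogene. COX5A, a subunit of complex IV, fell in G7 alone, by 0.47. Of 43 proteasome genes 42 lay below 0, at a median of -0.24, and PSMD3 (-0.64) and PSMB2 (-0.45) were called (4.65%). Of 78 mitochondrial ribosomal proteins 68 lay below 0, at a median of -0.21. MRPL41 (-1.25) and MRPS26 (-0.48) were called (2.56%, close to the 2% of all genes). All 13 transcripts of the mitochondrial genome lay above 0, at a median of 0.39. By edgeR 0 were called, with 11 of them at an unadjusted p under 0.05, by DESeq2 2 and by limma-voom 0. Over all genes tested 7131 lay below 0 and 7304 above. The 2 called genes of oxidative phosphorylation were 0 without F3 control 2, 1 without any HHT library and 4 without G7 control 2. Those of the proteasome were 0 without F3 control 2, 1 without any HHT library and 9 without G7 control 2. The 2 called mitochondrial ribosomal proteins were 5 without G7 control 3, 2 without G7 control 2 and 1 without any other single library.

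Line differences also moved with transcript length. In the shortest of 5 equal bins of transcript length the median line difference was -0.08, with 19 genes called positive and 64 negative, and in the longest it was 0.10, with 85 called positive and 30 negative. By GC content the medians of the 5 bins lay between -0.01 and 0.02, but the number called differed in both directions. In the lowest GC bin 27 genes were called positive and 24 negative, and in the highest 84 and 89. The part of length in the list medians was not tested. The interferon, immediate early and stress response counts were 21 and 12 negative and 7 positive with the GC and length trend of each library removed, against 14, 9 and 5 with no such correction. Calls over all genes also grew with that removal, from 289 to 534 negative and from 259 to 373 positive. Without 1 library, the calls of UQCRFS1 (F3 control 2, 0.0663), COX5A (any library but G7 control 2, G7 control 3 and F3 control 3, 0.0513 to 0.18) and PSMD3 (F3 control 2, 0.0623) were lost. Single libraries decided PSMB2 (any library but G7 control 2, G7 control 3 and F3 control 3, 0.0856 to 0.232) and MRPS26 (any library but G7 control 3, 0.0552 to 0.247).

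**Figure D5:**
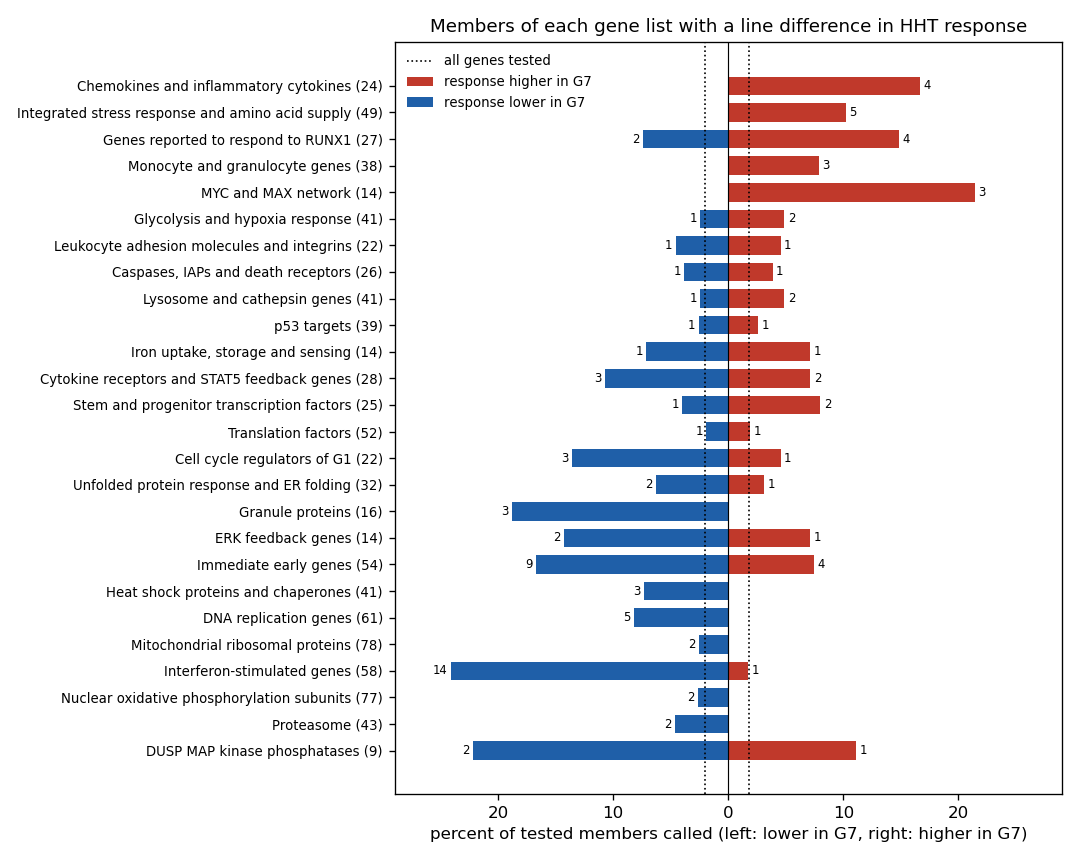
Percent of the tested members of each gene list with the line difference called negative (blue, left) and positive (red, right), for the 26 lists with at least 2 called members, ordered by the median line difference of the list, with the number called beside each bar and the number tested in brackets. Dotted lines mark 2% negative and 1.79% positive, the shares over all 14435 genes. Interferon-stimulated genes have the most called members on the left (14) and genes of the integrated stress response on the right (5).

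Among the other lists, the 41 lysosome genes tested had 2 positive members (4.88%, against 1.79% of all genes), GRN and TFEB. They had 1 negative member (2.44%, against 2%), CTSL. The 2 were 0 without F3 HHT 3 and 1 without any other single library but the G7 controls. GRN, which encodes progranulin, fell by 1.29 in G7 and fell by 1.83 in F3 (0.54), and TFEB, the transcription factor of lysosome genes, rose by 1.55 in G7 and by 1.01 in F3 (0.55). CTSL, the protease cathepsin L, fell by 1.35 in G7 and fell by 0.84 in F3 (-0.51). EEF2K, the kinase that slows elongation factor 2, fell more in F3 (-2.04 in G7 and -2.64 in F3), and EIF5A, which helps ribosomes over difficult stretches, fell by 0.30 in G7 and rose by 0.26 in F3. They were the called members among 52 translation factors. EBNA1BP2 (line difference -0.46) was the called gene among 76 of ribosome biogenesis, TRA2B (-0.54) among 18 SR proteins and CLK kinases, and KLF7 (0.63) among 12 Kruppel-like factors. Of the 80 cytosolic ribosomal proteins, 79 fell in G7 and 77 in F3 (35% and 34.5% of all genes). They had 0 line differences called by edgeR (0 positive and 3 negative at an unadjusted p under 0.05) and a median of 0.00. Of 43 replication-dependent histones, 41 rose in G7 and 39 in F3 (36.2% and 37.3% of all genes). Among these histones edgeR called 0 line differences (2 positive and 1 negative at an unadjusted p under 0.05), DESeq2 0 and limma-voom 1, at a median of 0.02. Of 15 factors of nonsense-mediated decay edgeR called 0 (2 positive and 1 negative at an unadjusted p under 0.05), DESeq2 1 and limma-voom 0, at a median of -0.02. Calls lost without 1 library were GRN (G7 HHT 1, F3 HHT 3 or F3 control 2, 0.0528 to 0.11), TFEB (G7 HHT 2, F3 HHT 1, F3 HHT 3 or F3 control 3, 0.0675 to 0.11) and CTSL (any library but G7 HHT 2, G7 control 2 and G7 control 3, 0.0556 to 0.105). Leaving out 1 library ended the calls of EEF2K (any library but the G7 controls, 0.0527 to 0.205), EIF5A (any library but G7 control 3 and F3 control 3, 0.059 to 0.233) and EBNA1BP2 (any library but the G7 controls, 0.0623 to 0.222). Fits without 1 library lost TRA2B (G7 HHT 1, F3 HHT 3 or F3 control 2, 0.0721 to 0.131) and KLF7 (G7 HHT 1, F3 HHT 1, F3 HHT 3 or F3 control 2, 0.0546 to 0.0678).

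Of 173 long noncoding RNAs with a mean of at least 5 CPM, 4 were called, against 512 of all 10146 genes at that minimum. AP002761.4 had 6.28 and 6.15 CPM in the G7 HHT libraries and 90.4 and 79.5 CPM in the G7 controls, against 3.26 and 2.30 CPM in the F3 HHT libraries and 96.2 and 89.4 CPM in the F3 controls, and fell further in F3, at a line difference of 1.29 ± 0.19 (SE, edgeR adjusted p = 0.0018). AL365361.1 rose by 0.53 in G7 and fell by 0.61 in F3 (1.15, adjusted p = 0.00595). SNHG7, a host gene of small nucleolar RNAs and the 1 called member of 27 snoRNA hosts and substrates of nonsense-mediated decay, rose in G7 alone, by 0.58 (0.47, adjusted p = 0.0278), or in both lines with library totals alone as the scale, with 86.6 and 89.1 CPM with HHT and 60.2 and 57.2 CPM without it in G7, and 97.2 and 96.9 CPM with HHT and 85.5 and 93.9 CPM without it in F3. Dependent on single libraries were AL365361.1 (F3 control 2, 0.0562) and SNHG7 (any library but G7 control 2, G7 control 3 and F3 control 2, 0.0842 to 0.166).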

How the data were processed

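The authors deposited raw read counts per gene for 14 libraries, without scaling. The submitters' processing notes name the aligner STAR 2.6.0b, the build GRCh38 and DESeq2. How reads were counted, by which annotation and with what strand setting is not given in the sources used here, and overlapping, antisense and near-identical genes cannot be told apart. Of 58037 gene IDs 57388 matched GENCODE release 29, which gave symbols and positions.

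The 8 total RNA libraries of G7 and F3 were fitted with edgeR 4.0.16 (R 4.3.3) on the deposited counts: filterByExpr by group, TMM factors, 1 mean per group and quasi-likelihood tests of each contrast, with Benjamini-Hochberg adjustment over 14435 genes. SEs are the log2 value over the root of F and are approximate. The fit was tested on simulated data. Alternatives were DESeq2 1.42.0, limma 3.58.1 (voom), other scalings and filters, replicate blocks, single libraries left out and GC or length trends removed (loess, span 0.3). All use the same count table.

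Among protein-coding genes of at least 5 CPM on average, the 10 largest and 10 most negative line differences were named. Under the same limits, the 8 opposite responses whose smaller side was largest and 4 genes per class were named. Added to these were 3 long noncoding RNAs, 10 genes fixed by name and up to 4 members of each list. A called list member is not reported here. Other list members were named after their values were seen. The members and lists were chosen with earlier results of these data known. The RiboLace and wild-type libraries are not used here, except that wild-type libraries share the spread in 1 alternative.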

Additional observations from a re-analysis of the deposited data

Results flagged for a closer look

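The HHT response differed between G7 and F3, by a test of the difference itself, for 548 genes in edgeR. The values below are line differences on the log2 scale, G7 minus F3, of the 109 named genes among them, and no explanation of them was tested.

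The line difference was positive, in falling order, for GPNMB (2.18), RIN3 (2.14), IL1RN (1.90), HSPG2 (1.59), VSIR (1.56), SLC2A3 (1.47), RGS16 (1.44), DNASE2 (1.33), IQSEC1 (1.32), NLRP1 (1.32), AP002761.4 (1.29) and FOS (1.27). It was also positive for BTG2 (1.25), CCL3L1 (1.20), AL365361.1 (1.15), LSS (1.12), TNF (1.12), CBFA2T3 (1.07), ITGAX (0.99), MILR1 (0.99), TNFRSF1B (0.93), IL17RA (0.92), ATF5 (0.92) and TRIB3 (0.91). Smaller positive values belonged to PREX1 (0.89), HK2 (0.87), NFE2 (0.86), GATA2 (0.85), DDIT3 (0.85), SLC7A5 (0.82), TFRC (0.76), DUSP4 (0.73), MYC (0.71), CXCL8 (0.70), MYB (0.68) and MNT (0.65). Positive values of the least size belonged to KLF7 (0.63), EEF2K (0.60), MLX (0.57), TFEB (0.55), GRN (0.54), CD4 (0.54), CD74 (0.51), CCND3 (0.50), SNHG7 (0.47), CYBB (0.46) and BCL2 (0.44). 

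The line difference was negative, from the most negative on, for SRXN1 (-4.98), RAB5IF (-3.26), TMEM160 (-2.47), FADD (-2.19), SYNPO2 (-2.17), C4orf48 (-2.04), FABP3 (-1.70), OTUD1 (-1.68), NDUFAF8 (-1.67), HES1 (-1.66), ARVCF (-1.62) and SLC39A3 (-1.55). It was also negative for FTH1 (-1.53), CCDC71L (-1.31), CEBPD (-1.31), PIM1 (-1.30), SDF2L1 (-1.26), MRPL41 (-1.25), DUSP1 (-1.24), STOX2 (-1.23), ADORA2B (-1.17), PPP1R27 (-1.17), PRDM8 (-1.17) and HSH2D (-1.15). Less negative values belonged to FOSL1 (-1.08), CLEC5A (-1.07), OLIG1 (-1.03), HOXA10 (-1.02), CMPK2 (-0.97), IFI6 (-0.94), DUSP2 (-0.91), CDKN2A (-0.87), USP18 (-0.85), DDX58 (-0.85), IER5 (-0.83) and SPRY2 (-0.82). Next came SERPINB1 (-0.78), CD47 (-0.73), UQCRFS1 (-0.67), PFKFB4 (-0.67), MPO (-0.67), PSMD3 (-0.64), HSPE1 (-0.63), CDK2 (-0.62), MANF (-0.59), HSPB1 (-0.57), EIF5A (-0.56) and PCNA (-0.55). After these came IL2RG (-0.55), TRA2B (-0.54), CCND1 (-0.54), CENPA (-0.53), CTSL (-0.51), COX5A (-0.51), STIP1 (-0.49), MRPS26 (-0.48), CDC45 (-0.46), EBNA1BP2 (-0.46), PSMB2 (-0.45) and MCM5 (-0.42). The least negative values belonged to CTSG (-0.41) and MCM7 (-0.40). SRXN1 had at most 58 reads in any library.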

How the results depend on the processing

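Of the 548 called genes, 494 were also called by DESeq2 (594 in all), 507 by limma-voom (534), 490 with library totals alone (529) and 412 with the wild-type libraries sharing the spread (412). Without a filter on low counts 823 genes were called, 437 of them negative. With an absolute line difference of at least 1 the calls were 114, of which 53 were positive and 61 negative, and the same minimum left 4550 genes for HHT in G7, 4808 for HHT in F3, 522 for G7 against F3 in controls, 599 after HHT and 19 opposite genes. Removing the GC trend of each library, an alternative chosen after seeing the data as was the next, gave 868 calls (404 positive and 464 negative), and removing the GC and length trend gave 907, of which 534 were negative, without CTSG, HSPB1 and MRPS26.

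With 1 library left out, the calls ranged from 178 to 1089, the positive ones from 110 to 622, the negative ones from 68 to 467, G7 against F3 in controls from 1548 to 3189, after HHT from 1438 to 4022, the opposite genes from 21 to 89 and the slope from 0.872 to 0.996. Of the 109 named genes called, 49 were called without any single library and in every other setting, and 0 changed sign. SPI1, not called with a line difference of -0.04, was 0.0392 with the GC trend removed, 0.148 with GC and length removed and 0.0021 with the replicate block by library-name number, and with 1 library left out its values ranged from -0.173 to 0.105.

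The labels number replicates differently in titles and library names. Same-numbered libraries deviated together at r = 0.23 in G7 and 0.08 in F3 by title number, and at -0.23 to 0.16 by library-name number, so the numbers were not taken as pairs. With a replicate block by title number 2153 genes were called (1048 positive and 1105 negative) with 116 opposite, all 548 among them, and by library-name number 775, without BCL2, CDC45, PARP9 and POLA2. With 2 libraries in a group, their deviations from the group mean mirror each other. The r of -0.23 within G7 is thus the 0.23 by title with its sign reversed, and it cannot decide between the pairings. The cause of the shifts with a replicate block was not tested. Depth limits genes of few reads, such as SRXN1 at 1 to 58 and PIM1 at 41 to 121 reads a library.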
